A study of Mus musculus with 2 samples.

Results

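Potassium channel genes were followed across the cell classes of the mouse dorsal root ganglion, the sensory ganglion beside the spinal cord. The list holds 39 genes chosen by symbol. Of these, 38 were among the 19059 genes of the probe panel, and Kcnk2 was not analysed here. Every one of the 38 had at least 100 unique molecular identifiers (UMIs) in the neurons of both libraries together, so no member was lost to a filter on low counts.

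Potassium channels carry the outward current that sets the resting potential, ends each action potential and limits how fast a neuron can fire again. Voltage-gated Kv subunits, calcium-activated BK and SK channels, sodium-activated channels and K2P background channels differ in the voltage, ion or lipid that opens them. Sensory neurons with thick myelinated axons (A fibres), which fire at high rates, and neurons with thin unmyelinated axons (C fibres), which serve pain, itch, warmth and gentle touch, are known to use different sets of them.

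Mice of the genotype Foxp3 CreER; Penk fl/WT gave the control library, and Foxp3 CreER; Penk fl/fl mice gave the library called Treg_Penk_KO here. Both groups carried the tamoxifen-inducible recombinase under Foxp3, the lineage factor of regulatory T cells, and at least 1 floxed allele of Penk, the enkephalin precursor gene. All animals received tamoxifen, and the skin irritant imiquimod was given for 3 days before cervical ganglia were fixed in 4% paraformaldehyde. The labels name neither an age nor how many mice were pooled. Each group was 1 pooled library, so there was no replicate check and no test between genotypes, and the 95% intervals below cover counting error only.

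After filtering, 15690 control and 12053 Treg_Penk_KO cells remained, of which 6564 and 5034 were neurons with a median of 10432.5 and 7628.5 UMIs. Penk itself had 582 UMIs in the control library and 4 in the Treg_Penk_KO library, and within neurons 410 and 1. Levels are in CPM, counts per 1000000 UMIs of the same class and library. Of all droplet barcodes, 4723 occurred in both libraries, and they held 30.1% of the kept control cells and 39.2% of the kept Treg_Penk_KO cells.

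Neurons were sorted into 10 subtypes by fixed markers, after clustering in which potassium channel genes took no part, and each name means only resemblance to those markers. The 4 A-fibre subtypes were proprioceptor-like (muscle sense), A-beta and A-delta low-threshold mechanoreceptor (LTMR)-like (touch and hair movement) and peptidergic A-fibre-like cells. The 6 C-fibre subtypes were C-LTMR-like (gentle touch), Mrgprd-like nonpeptidergic, Mrgpra3-like, Sst/Nppb-like (itch), peptidergic C-like and Trpm8-like (cold) cells. The Mrgpra3-like class joined a cluster led by Mrgprb4 (159 and 133 cells) and one with Mrgpra3 among its leading genes (168 and 129 cells). It is therefore not called an itch class here. The fit of each class to its own markers was then counted. The same markers had named the clusters, so this describes the fit and is no independent check of the names. In the control library all 6 proprioceptor markers, 4 of 4 A-delta LTMR markers, 6 of 6 Mrgprd markers, 7 of 7 Sst/Nppb markers and 4 of 4 Trpm8 markers were highest in the subtype they name. The fit was looser for A-beta LTMR-like (3 of 6), Mrgpra3-like (3 of 5) and peptidergic A-fibre-like cells (3 of 5). In Treg_Penk_KO the counts of the neuron subtypes were the same, except for Trpm8 with 3 of 4. Of the non-neuronal classes, satellite glia-like cells fitted least, with 3 of 5 markers highest there in control and 2 of 5 in Treg_Penk_KO, against 8 of 8 for myelinating Schwann-like cells in both. Another 543 control and 352 Treg_Penk_KO neurons stayed unnamed. The number of probes per gene was not known, so levels were compared between cell classes for 1 gene and never between genes.

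Each of the 38 genes had the same highest subtype in both libraries, against 70.6% of all 13544 genes counted by the same rule. Those 13544 genes include some with as few as 100 neuronal UMIs, while the sparsest member, Kcnn3, had 376 and 240. Of the other potassium channel genes of the panel, 41 of 43 also had the same highest subtype. Trpm8-like neurons were the highest subtype for 7 members, proprioceptor-like neurons for 6 and A-delta LTMR-like neurons for 5. A-beta LTMR-like, C-LTMR-like and Mrgprd-like neurons led for 4 members each, Mrgpra3-like for 3, peptidergic C-like and peptidergic A-fibre-like for 2 each, and Sst/Nppb-like for 1. The members thus spread over all 10 subtypes.

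**Figure D1:**
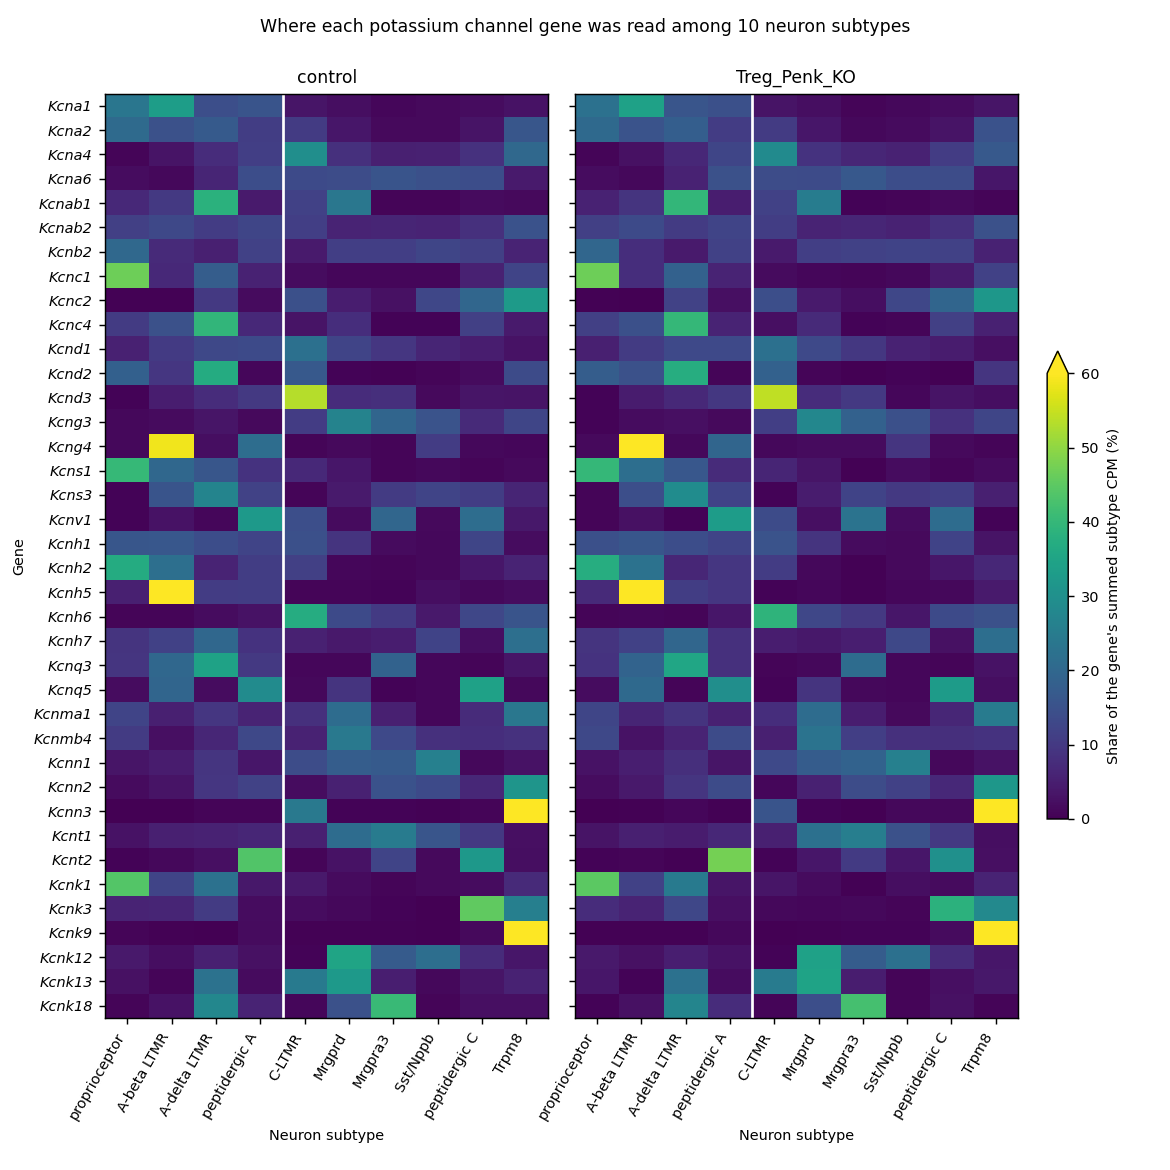
Heat map of the 38 potassium channel genes (rows) over 10 neuron subtypes (columns) in the control library (left) and the Treg_Penk_KO library (right). Colour gives the share of the gene's CPM summed over the 10 subtypes, in percent, with the brightest colour shared by all shares beyond the scale, and the white line divides the 4 A-fibre from the 6 C-fibre subtypes. Both panels show the same highest subtype for all 38 genes, and Kcnk9 in Trpm8-like neurons is the most concentrated, at 94.6% and 94.5%.

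Between the fibre classes, 12 members had a mean A-fibre level at least 2-fold the mean C-fibre level in both libraries, where 9.07% of all genes did. Another 11 had a C-fibre mean at least 2-fold the A-fibre mean, where 11.5% of all genes did. The remaining 15 passed neither limit. On the A-fibre side stood Kcna1, Kcna2, Kcnab1, Kcnc1, Kcnc4, Kcnd2, Kcng4, Kcns1, Kcnh2, Kcnh5, Kcnq3 and Kcnk1. The C-fibre side held Kcna4, Kcna6, Kcnc2, Kcnd3, Kcng3, Kcnh6, Kcnn1, Kcnn3, Kcnt1, Kcnk9 and Kcnk12. The highest A-to-C ratios were those of Kcnh5 (18.4 in the control library and 15.7 in Treg_Penk_KO), Kcna1 (9.99 and 10.2) and Kcns1 (8.43 and 8.84). At the other end, the C-to-A ratio was 32.7 and 34.7 for Kcnn3, 23.7 and 28.6 for Kcnk9 and 9.50 and 9.68 for Kcnh6. Just inside and outside the A-fibre limit were Kcnab1 (2.21 and 2.19) and Kcnh1 (2.14 in control), the second just short of it in Treg_Penk_KO (1.998).

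**Figure D2:**
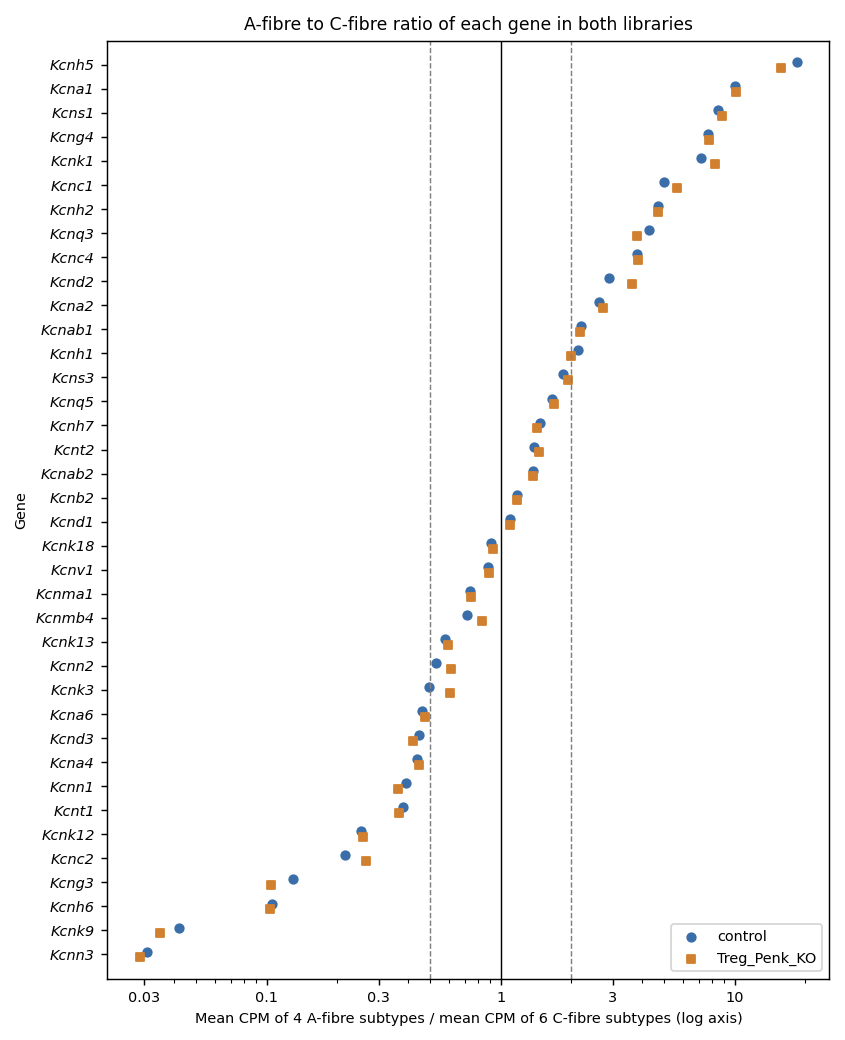
Ratio of the mean CPM of 4 A-fibre subtypes to the mean CPM of 6 C-fibre subtypes for each potassium channel gene (log axis), with circles for the control library and squares for Treg_Penk_KO. Dashed lines mark a ratio of 2 and its inverse; Kcnh5 stands highest at 18.4 and 15.7, and the 2 points of each gene lie close together.

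Subtype markers give a scale for how concentrated a gene of 1 subtype appeared in these libraries. Of the CPM summed over the 10 subtypes, Trpm8 held 95.7% and 93.9% in Trpm8-like neurons, Nppb 95.6% and 97.0% in Sst/Nppb-like neurons and Pvalb 82.2% and 81.3% in proprioceptor-like neurons. The A-to-C ratio of Pvalb, a calcium buffer of muscle afferents, was 10.9 and 9.70. The share of Kcnk9 in its highest subtype (94.6% and 94.5%) and the A-to-C ratio of Kcna1 stand beside these values, and no difference from them was tested.

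The promoter windows of the 2 A-fibre and 2 C-fibre members that stood farthest apart, among members with 1 window in RefSeq's table, are shown to set their sequence beside their opposite patterns. Each window holds the 250 bases before the annotated start (RefSeq, GRCm38.p6), read 5′ to 3′ on the gene's strand, and capitals mark each match to the GC box core GGGCGG on either strand. Kcnh5 lies at chr12:75177333-75177582 (minus strand), Kcns1 at chr2:164171114-164171363 (minus), Kcnn3 at chr3:89519914-89520163 (plus) and Kcnh6 at chr11:106007898-106008147 (plus).
Kcnh5: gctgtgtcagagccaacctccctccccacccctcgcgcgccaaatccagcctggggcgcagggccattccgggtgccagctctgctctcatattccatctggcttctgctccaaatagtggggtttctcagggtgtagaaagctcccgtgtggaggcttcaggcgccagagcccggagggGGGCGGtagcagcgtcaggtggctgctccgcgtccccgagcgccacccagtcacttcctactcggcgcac
Kcns1: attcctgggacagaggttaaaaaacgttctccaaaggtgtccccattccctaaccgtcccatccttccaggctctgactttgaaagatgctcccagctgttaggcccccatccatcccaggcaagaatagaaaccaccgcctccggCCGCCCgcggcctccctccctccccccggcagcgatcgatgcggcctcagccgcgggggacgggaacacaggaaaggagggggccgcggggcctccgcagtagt
Kcnn3: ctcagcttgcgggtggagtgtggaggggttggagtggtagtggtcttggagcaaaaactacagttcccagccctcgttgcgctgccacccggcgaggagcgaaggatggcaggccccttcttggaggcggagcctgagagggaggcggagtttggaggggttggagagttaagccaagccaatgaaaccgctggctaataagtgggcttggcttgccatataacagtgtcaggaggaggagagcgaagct
Kcnh6: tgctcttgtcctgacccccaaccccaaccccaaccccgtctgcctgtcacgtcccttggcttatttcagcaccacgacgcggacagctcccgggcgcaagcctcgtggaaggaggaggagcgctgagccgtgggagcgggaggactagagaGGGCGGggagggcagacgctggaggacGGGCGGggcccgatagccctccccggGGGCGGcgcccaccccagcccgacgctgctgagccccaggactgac

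This core occurred in the windows of both A-fibre genes and, 3 times, in that of the C-fibre gene Kcnh6, and not in that of Kcnn3. Over the 23 members with 1 window, 60.9% held it, against 32.7% of all 32851 windows of this length. GC content differed in the same direction, with a median of 64.8% over these members and 52.4% over all windows. The TATA box letters TATAAA were in 0 of the 23 windows and in 12.4% of all windows. The E-box letters CACGTG were in 0 of the 23 and in 6.02% of all. The nuclear receptor motif AAGGTCA was in 1 of the 23 and in 4.08% of all. Both strands were searched, no motif contains another, and a match describes letters only.

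The Kv1 family forms low-threshold channels that hold an axon below its firing limit. Kcna1, which encodes Kv1.1 (ENSMUSG00000047976, GRCm39 chromosome 6, 126617360 to 126623347, minus strand), read 812 CPM (799.6 to 824) in control A-beta LTMR-like neurons and 806 CPM (790.4 to 822) in those of Treg_Penk_KO. Proprioceptor-like neurons followed with 573 and 524 CPM, and the 6 C-fibre subtypes lay between 24.3 and 82.7 CPM in the control library. No C-fibre subtype reached the lowest A-fibre subtype, which was the A-delta LTMR-like at 350.0 CPM in control and the peptidergic A-fibre-like at 347 CPM in Treg_Penk_KO. Kcna2 (Kv1.2), a partner of Kv1.1 in axons, was highest in proprioceptor-like neurons (709 and 701 CPM). Unlike Kcna1, it was also high in Trpm8-like neurons, with 544 and 515 CPM, and in C-LTMR-like neurons, with 357 and 356 CPM.

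The other Kv1 genes had the reverse order. Kcna4, whose Kv1.4 channel inactivates quickly, read 146 and 141 CPM in C-LTMR-like neurons and 3.82 and 4.05 CPM in proprioceptor-like neurons. Trpm8-like neurons were second for Kcna4, at 99.4 and 82.0 CPM. Kcna6 (Kv1.6) was flat over most C-fibre subtypes, from 204 CPM in C-LTMR-like to 235 CPM in Mrgpra3-like neurons of the control library, and was as high in peptidergic A-fibre-like neurons (213 and 226 CPM). Only Trpm8-like neurons among the C-fibre subtypes were low for Kcna6, at 66.5 and 55.5 CPM. Of the beta subunits, which bind Kv1 channels inside the cell, Kcnab1 was highest in A-delta LTMR-like (542 and 585 CPM) and Mrgprd-like neurons (336 and 373 CPM). Kcnab2 was read in every subtype, from 834 CPM in Mrgprd-like to 2131 CPM in Trpm8-like neurons of the control library.

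Kv3 channels open at strong depolarisation and close fast, which suits rapid firing, and the 3 Kv3 genes measured each had their own subtype. Kcnc1 (Kv3.1) on chromosome 7 (GRCm39, 46045674 to 46106392, plus strand) read 435 CPM (426 to 443) and 406 CPM (394 to 417) in proprioceptor-like neurons. It was second in A-delta LTMR-like neurons at 164 and 161 CPM and stood at 10.0 and 9.95 CPM in Mrgprd-like neurons. Kcnc4 (Kv3.4) was highest in A-delta LTMR-like neurons with 522 and 548 CPM, and lowest in control Sst/Nppb-like neurons with 8.44 CPM. Kcnc2 (Kv3.2) was highest in Trpm8-like neurons at 168 and 171 CPM, followed by peptidergic C-like neurons at 101 and 105 CPM, and stood at 2.04 and 2.20 CPM in proprioceptor-like neurons. Kcnc1 and Kcnc2 were therefore at opposite ends in proprioceptors, while both were present in Trpm8-like neurons, where Kcnc1 read 116 and 100.4 CPM.

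Kv4 channels give a fast transient current that delays firing, and Kcnb2 encodes a Kv2 delayed rectifier. Kcnd3 (Kv4.3, GRCm39 chromosome 3, 105359284 to 105581318, plus strand) was concentrated in C-LTMR-like neurons, with 352 CPM (341 to 363) and 405 CPM (390.4 to 419). No other subtype passed 73.4 CPM for Kcnd3, and proprioceptor-like neurons read 3.55 and 5.23 CPM. Kcnd1 (Kv4.1) was also highest in C-LTMR-like neurons, at 353 and 367 CPM, but less concentrated, with 214 and 219 CPM in peptidergic A-fibre-like neurons, and lowest in Trpm8-like neurons at 46.3 and 39.7 CPM. Kcnd2 (Kv4.2) was sparse, with 707 and 334 UMIs over all neurons, and reached 14.8 and 12.4 CPM in A-delta LTMR-like neurons. Kcnb2 was highest in proprioceptor-like neurons (337 and 330.0 CPM) and about even, from 184 to 208 CPM, over 5 other control subtypes, the Mrgprd-like, Mrgpra3-like, Sst/Nppb-like, peptidergic C-like and peptidergic A-fibre-like.

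**Figure D3:**
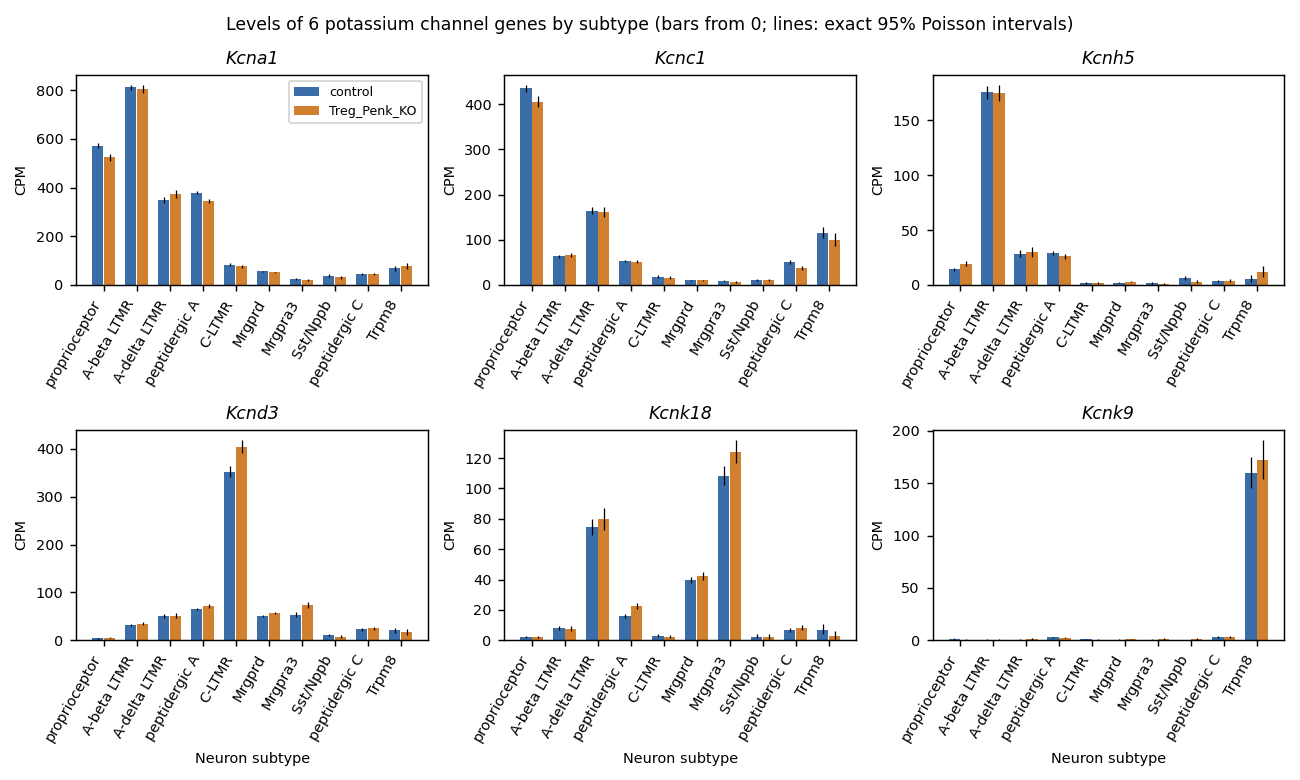
CPM of Kcna1, Kcnc1, Kcnh5, Kcnd3, Kcnk18 and Kcnk9 in 10 neuron subtypes, the 4 A-fibre subtypes on the left of each panel, with blue bars for the control library, orange bars for Treg_Penk_KO and lines for exact 95% Poisson intervals (counting error only). Kcnk9 stands out in Trpm8-like neurons at 160.1 and 172 CPM, and Kcnk18 has 2 peaks, in Mrgpra3-like and A-delta LTMR-like neurons.

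Silent subunits form no channel alone but join Kv2 subunits and alter their gating. Kcns1 (Kv9.1) was highest in proprioceptor-like neurons, with 327 and 344 CPM, and declined to 162 and 186 CPM in A-beta LTMR-like neurons and to a low of 6.68 CPM in control peptidergic C-like neurons. The related Kcns3 (Kv9.3) avoided proprioceptor-like neurons (7.19 and 8.02 CPM) and C-LTMR-like neurons (7.86 and 5.76 CPM) and was highest in A-delta LTMR-like neurons (294 and 304 CPM). Kcng4 (Kv6.4) was confined largely to A-beta LTMR-like neurons, with 37.3 and 39.6 CPM, or 58.7% and 61.5% of its summed subtype CPM. Kcng3 (Kv6.3) was highest in Mrgprd-like neurons, with 227 and 222 CPM, and no A-fibre subtype passed 29.0 CPM. Kcnv1 (Kv8.1) was highest in peptidergic A-fibre-like neurons (69.9 and 84.6 CPM), then peptidergic C-like (46.3 and 54.1 CPM) and Mrgpra3-like neurons (42.5 and 58.4 CPM). In each of these 3 subtypes Kcnv1 was higher in Treg_Penk_KO than in control.

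The EAG family includes the ERG channels, which limit repeated firing. Kcnh5 (EAG2, ENSMUSG00000034402, GRCm39 chromosome 12, 74942354 to 75224151, minus strand) read 175 CPM in A-beta LTMR-like neurons of both libraries (169.9 to 181 and 168 to 183). The next subtypes were the peptidergic A-fibre-like at 29.1 and 26.0 CPM and the A-delta LTMR-like at 28.5 and 29.9 CPM, and C-LTMR-like neurons were at 1.96 and 1.70 CPM. Kcnh1 (EAG1) had no single peak, with 79.5 CPM in A-beta LTMR-like, 79.0 in proprioceptor-like and 72.1 in C-LTMR-like neurons of the control library. Kcnh2 (ERG1) was highest in proprioceptor-like neurons, at 358 and 340.4 CPM. Kcnh6 (ERG2) was highest in C-LTMR-like neurons, at 218 CPM in both libraries, with 4.93 and 5.15 CPM in proprioceptor-like neurons. Kcnh7 (ERG3) was highest in Trpm8-like (413 and 412 CPM) and A-delta LTMR-like neurons (379 and 378 CPM). The control intervals of these levels were 390.0 to 437 and 367 to 391 CPM. The 3 ERG genes thus led in 3 different subtypes.

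Kv7 channels carry the M current, a slow brake on excitability. Kcnq3 (Kv7.3) was highest in A-delta LTMR-like neurons at 180.4 and 192 CPM, with 105 and 104 CPM in A-beta LTMR-like and 97.8 and 115 CPM in Mrgpra3-like neurons. Kcnq3 stood at 5.33 CPM or less in 4 control C-fibre subtypes, the C-LTMR-like, Mrgprd-like, Sst/Nppb-like and peptidergic C-like. Kcnq5 (Kv7.5) had other leading subtypes, with 54.8 and 53.6 CPM in peptidergic C-like neurons, 46.1 and 48.1 CPM in peptidergic A-fibre-like neurons and 3.04 and 1.47 CPM in A-delta LTMR-like neurons.

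Calcium-activated channels couple calcium entry to repolarisation. Kcnma1, the pore of the BK channel, was highest in Trpm8-like (155 and 159 CPM) and Mrgprd-like neurons (139 and 135 CPM). Its accessory subunit Kcnmb4 was highest in Mrgprd-like neurons too, at 105 and 91.1 CPM, and lowest in A-beta LTMR-like neurons, at 11.8 CPM in Treg_Penk_KO. Among the SK genes, Kcnn1 (SK1) was highest in Sst/Nppb-like neurons, at 151 CPM in both libraries. Kcnn2 (SK2) was highest in Trpm8-like neurons, at 68.2 and 65.7 CPM. Kcnn3 (SK3, GRCm39 chromosome 3, 89427460 to 89582439, plus strand) read 45.9 CPM (38.5 to 54.4) and 54.0 CPM (44.2 to 65.3) in Trpm8-like neurons from 134 and 106 UMIs. C-LTMR-like neurons followed for Kcnn3 with 15.5 and 10.6 CPM, and every other subtype was below 1 CPM in both libraries.

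Sodium-activated channels open during bursts of firing. Kcnt1 (Slack) was highest in Mrgpra3-like (203 and 201 CPM) and Mrgprd-like neurons (174 and 175 CPM). Kcnt2 (Slick) was instead highest in peptidergic A-fibre-like (52.2 and 59.9 CPM) and peptidergic C-like neurons (38.4 and 38.0 CPM), with Mrgpra3-like neurons next at 14.8 CPM in the control library.

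K2P channels, which have a pair of pore domains in each subunit, carry the background current of the resting membrane. Kcnk9 (TASK-3, ENSMUSG00000036760, GRCm39 chromosome 15, 72372938 to 72419556, minus strand) read 160.1 CPM (146 to 175) and 172 CPM (154 to 192) in Trpm8-like neurons, from 467 and 338 UMIs. The highest of the other subtypes was the peptidergic A-fibre-like in the control library (2.82 CPM) and the peptidergic C-like in Treg_Penk_KO (3.07 CPM). A Kcnk9 UMI was found in 63.3% of 218 control Trpm8-like cells (Clopper-Pearson 56.5% to 69.7%) and in 51.6% of 186 Treg_Penk_KO cells (44.2% to 59.0%), at a median of 7173.5 and 5848.5 UMIs per cell. Macrophage-like cells, a class that should lack the gene, had one in 0.140% of 712 cells and in 0 of 555, which allows a share of cells with a UMI of up to 0.541% (3 counts), at a median of 925 and 908 UMIs. With every cell thinned to 500 UMIs, the Trpm8-like shares were 8.72% and 10.8%, and the macrophage-like shares 0.140% and 0.

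Kcnk18 (TRESK, GRCm39 chromosome 19, 59207646 to 59225806, plus strand) had a pair of peaks, in Mrgpra3-like neurons at 108 CPM (102 to 115) and 124 CPM (117 to 132) and in A-delta LTMR-like neurons at 74.4 and 79.8 CPM. Mrgprd-like neurons came next for Kcnk18 with 39.5 and 42.2 CPM, and Sst/Nppb-like neurons read 2.36 and 2.20 CPM. Kcnk1 (TWIK-1) was highest in proprioceptor-like neurons, with 480.4 and 482 CPM, and A-delta LTMR-like neurons followed with 245 and 264 CPM. Kcnk3 (TASK-1) was highest in peptidergic C-like neurons, with 76.6 and 61.1 CPM, and second in Trpm8-like neurons, with 43.9 and 44.8 CPM. Kcnk12 (THIK-2) and Kcnk13 (THIK-1) were both highest in Mrgprd-like neurons, at 122 and 113 CPM for Kcnk12 and 27.3 and 28.3 CPM for Kcnk13. They differed in C-LTMR-like neurons, where Kcnk12 was nearly absent (1.96 and 1.57 CPM) and Kcnk13 was close to its own maximum (21.0 and 20.3 CPM).

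Several genes also differed between clusters of 1 subtype, by at least 3-fold in both libraries. The values that follow are descriptions, since the clusters were drawn from the same cells. A-beta LTMR-like neurons held a cluster led by Calb1 (323 and 270 cells) and one led by S100a16, Pcp4l1 and Ptgfr (161 and 153 cells). Kcnq5 read 104.8 and 103 CPM in the second and 3.24 and 2.94 CPM in the first, and Kcnv1 read 21.9 and 22.9 CPM against 0.572 and 0.339 CPM. Peptidergic A-fibre-like neurons held a cluster led by Kit (259 and 192 cells) and one led by Htr3a (319 and 266 cells). In the Kit cluster Kcnt2 read 118.5 and 118.6 CPM against 21.0 and 17.9 CPM, and Kcnab1 read 125 and 133 CPM against 15.6 and 15.3 CPM. The Htr3a cluster was higher for Kcnh7, at 247 and 261 CPM against 51.4 and 42.9 CPM, and for Kcnq3, at 78.3 and 75.3 CPM against 8.56 and 9.48 CPM.

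In Mrgpra3-like neurons the cluster led by Mrgprb4 read 158 and 166 CPM of Kcnq3, and the cluster in which Mrgpra3 was among the leading genes read 27.3 and 30.4 CPM. Proprioceptor-like neurons were split for Kcnc4, with 232 and 260.0 CPM in the cluster led by Pvalb and 51.3 and 46.2 CPM in the one led by Spp1. Among peptidergic C-like neurons, Kcnk3 read 164 and 194 CPM in a small cluster (38 and 36 cells) and 131 and 116 CPM in one with Npy1r among its leading genes (221 and 191 cells). In another, with 149 cells in each library, Kcnk3 was at 10.2 and 6.25 CPM, while Kcnv1 was at 89.1 and 96.4 CPM there and at 10.4 and 6.84 CPM in the Npy1r cluster. The subtype means of Kcnk3, Kcnt2, Kcnq5 and Kcnv1 therefore average over cells that differ.

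The comparison of genotypes asks whether loss of Penk from regulatory T cells goes with another level of these channel genes in sensory neurons. Penk was also nearly missing from the neurons of Treg_Penk_KO (1 UMI against 410), so a loss limited to regulatory T cells was not what these libraries showed, and the ratios compare the 2 libraries as labelled. In the neurons as a whole, 0 of 38 members were at least 25% higher in Treg_Penk_KO and 1 of 38 was at least 20% lower, the size step used here. Of all 13544 genes, 2.48% and 4.36% passed that step (6.84% in either direction). That gene was Kcnd2, with 707 control and 334 Treg_Penk_KO UMIs and a ratio of Treg_Penk_KO to control of 0.785 (0.687 to 0.895). The next lowest ratios were those of Kcnc1 (0.802, 0.783 to 0.821), Kcnh2 (0.821, 0.804 to 0.838) and Kcna1 (0.833, 0.822 to 0.843). The highest ratios, just inside the step, were those of Kcnc2 (1.24, 1.19 to 1.29), Kcnv1 (1.23, 1.18 to 1.29), Kcnk18 (1.21, 1.16 to 1.26) and Kcnd3 (1.20, 1.17 to 1.24). The median log2 ratio was 0.03 over the members and -0.01 over all genes.

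Those ratios followed the fibre class. Of the 12 A-fibre members 11 had a ratio below 1, with a median of 0.871, and all 11 C-fibre members had a ratio above 1, with a median of 1.09. The A-fibre subtypes held 43.4% of neuronal UMIs in the control library and 39.5% in Treg_Penk_KO, and the C-fibre subtypes 39.7% and 47.9%. Unnamed neurons held the rest, 16.9% and 12.55%, and have no part in the equal weights. When the 10 subtypes were weighted equally, 5 of the 12 A-fibre members and 6 of the 11 C-fibre members were below 1, with medians of 1.01 and 0.995. Under equal weights 0 of 38 members passed the step in either direction, where 6.96% of all genes did (2.34% higher and 4.62% lower). Kcnd2 was then at 0.830, Kcnc1 at 0.933, Kcnh2 at 0.939 and Kcna1 at 0.968, and Kcnv1 (1.18) and Kcnd3 (1.13) were farthest above 1. In these pooled libraries a subtype's share of cells and its RNA per cell both enter its share of UMIs.

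**Figure D4:**
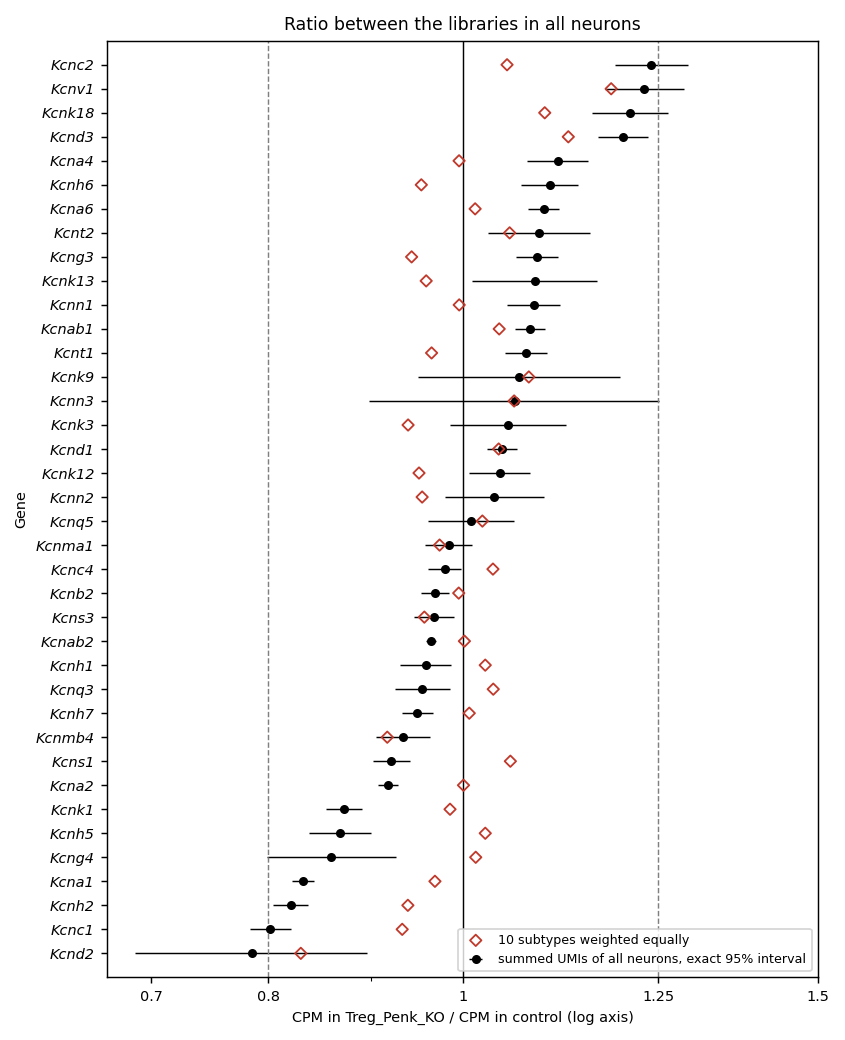
Ratio of CPM in Treg_Penk_KO to CPM in control over all neurons for each potassium channel gene (black points, log axis, with exact 95% intervals that cover counting error only), beside the ratio with 10 subtypes weighted equally (red diamonds). Dashed lines mark the size step; Kcnd2 at 0.785 is the 1 black point outside them, and no diamond is outside.

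Within its own highest subtype, 0 members were higher in Treg_Penk_KO by the step and 1 was lower, where 3.30% and 4.11% of 11322 genes were (7.41% in either direction). That gene was Kcnk3 in peptidergic C-like neurons, with 849 and 597 UMIs and a ratio of 0.798 (0.717 to 0.887). Its ratio lay between 0.713 and 0.809 over the other ways of counting tried, and in 2 of them (other clusterings of the neurons) it was just inside the step at 0.809. Kcnk3 in Trpm8-like neurons, the second highest subtype, did not share that direction (43.9 and 44.8 CPM). By cluster of peptidergic C-like neurons, Kcnk3 read 164 and 194 CPM in the highest and 10.2 and 6.25 CPM in the lowest. The lowest cluster held 149 of 666 control and 149 of 611 Treg_Penk_KO cells, and its part in the ratio was not tested. Kcnmb4 in Mrgprd-like neurons was at 0.867 (0.825 to 0.910).

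Kcnv1 stood at 1.21 (1.14 to 1.29) in peptidergic A-fibre-like neurons, the highest ratio of a member in its own subtype. That subtype was made up differently in the libraries, since 1 of its clusters, with the glial genes Apoe and Fabp7 among its leading genes, held 344 control and 94 Treg_Penk_KO cells. Without clusters that had glial markers among their leading genes, Kcnv1 was at 1.33 there and Kcnt2 moved from 1.15 to 1.00. Markers of satellite glia summed to 263 CPM in control and 237 CPM in Treg_Penk_KO peptidergic A-fibre-like neurons, and their part in these ratios was not tested. Kcnd3 in C-LTMR-like neurons was at 1.15 (1.10 to 1.21) and Kcnk18 in Mrgpra3-like neurons at 1.15, both inside the step.

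Taken subtype by subtype, 0 to 4 members were higher by the step and 0 to 6 lower. Over all genes the shares were 2.23% to 5.76% higher and 3.13% to 7.58% lower. In Mrgpra3-like neurons 2 of 30 members with enough UMIs were higher and 6 lower, where 2.49% and 6.65% of genes were. In Mrgprd-like neurons 4 of 34 were higher and 1 lower (3.09% and 3.74% of genes), and in proprioceptor-like neurons 2 of 30 and 1 (3.77% and 3.87%). Sst/Nppb-like neurons had 3 of 24 higher and 3 lower (3.02% and 5.18%). A-delta LTMR-like neurons had 0 of 32 and 3 (2.64% and 7.58%), and C-LTMR-like neurons 0 of 28 and 3 (2.33% and 5.11%). The remaining named subtypes had at most 2 members past the step in each direction. Some of these members were sparse in that subtype, such as Kcns1 in Mrgpra3-like neurons with 75 and 31 UMIs.

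Neuronal RNA was found in every non-neuronal class, so a member's level there was read only beside that of neuronal genes. The reference, 10 pan-neuronal genes, stood at 27.8% to 47.0% of their neuronal level in control satellite glia-like cells and at 41.0% to 60.1% in control myelinating Schwann-like cells, each cell weighted equally. The median member was within those ranges, at 39.4% and 56.4%. The A-fibre marker Pvalb stood at 76.4% and 77.7% in the Schwann-like cells of the 2 libraries. The members above their own neuronal level in both libraries by this measure are given below for the 6 classes with more than 100 cells.

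Myelinating Schwann-like cells read Kcna1 at 292% (control) and 307% (Treg_Penk_KO) of the neuronal level, or 809 and 826 CPM per cell, and Kcnk1 at 244% and 251%. By CPM of summed UMIs, as used for neurons, Kcna1 was at 152% and 188% and Kcnk1 at 127% and 145%. Pvalb was at 58.4% and 63.7% by that measure. Both genes were on the A-fibre side among neurons. Satellite glia-like cells, which surround the neuron's cell body, read Kcna6 at 311% and 304%, or 529 and 524 CPM per cell. Kcna2 was at 136% and 134% in Schwann-like cells and at 119.9% and 116% in satellite glia-like cells. Kcnmb4 was at 119% and 185% in satellite glia-like and at 122% and 164% in Schwann-like cells. Closer to the neuronal level were Kcna6 in Schwann-like cells (119% and 114%), Kcna1 in satellite glia-like (116% and 108%) and endothelial-like cells (122% and 109.8%), and Kcnh2 in satellite glia-like cells (109% and 100.04%).

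Endothelial-like cells read Kcnn2 at 199% and 228% of the neuronal level, from 224 and 184 UMIs. Macrophage-like cells read Kcnk13 at 359.6% and 439%, from 30 and 29 UMIs, and no other member passed its neuronal level in that class in both libraries. Fibroblast-like cells read Kcnt2 at 137% and 268%, from 25 and 42 UMIs, and mural-like cells, which wrap vessels, read it at 224% and 280% from 7 and 5 UMIs. Mural-like cells also read Kcnh1 at 154% and 131%, from 28 and 10 UMIs. Restricted to droplets found in 1 library only, Kcna1 and Kcnk1 in Schwann-like cells were at 322% and 276% in control, Kcna6 in satellite glia-like cells at 311%, Kcnn2 in endothelial-like cells at 209.6% and Kcnk13 in macrophage-like cells at 439%. In the same cells Kcnh1 in mural-like cells was at 189% in control and 87.6% in Treg_Penk_KO, below its neuronal level. Between genotypes, 0 of 33 members were higher by the step and 9 lower in satellite glia-like cells, where 4.62% and 6.22% of genes were. Other non-neuronal classes also held more members lower than higher. The counts were 0 higher and 5 lower of 13 in macrophage-like cells (10.0% and 9.67% of genes), 0 and 4 of 18 in fibroblast-like cells (7.45% and 7.52%) and 2 and 6 of 34 in endothelial-like cells (3.86% and 3.53%). In myelinating Schwann-like cells they were 1 and 1 of 36 (3.94% and 2.87%). The part of neuronal RNA in these counts was not tested.

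**Figure D5:**
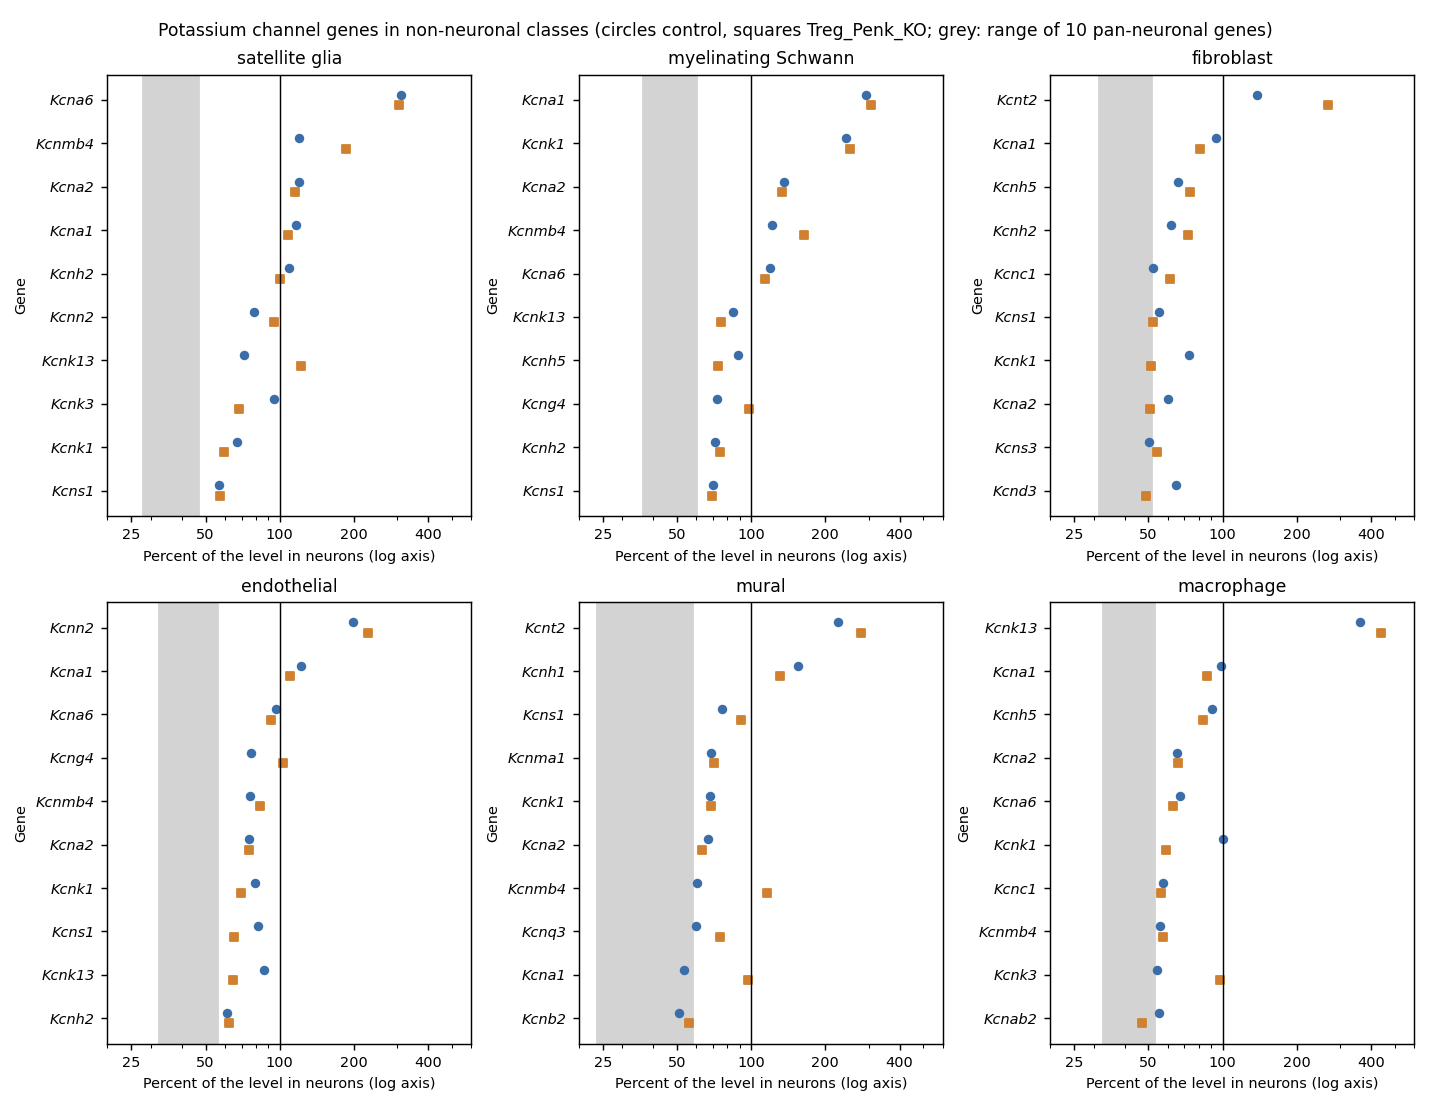
The 10 potassium channel genes with the highest level in each of 6 non-neuronal classes, as a percent of their level in neurons with each cell weighted equally (log axis; circles control, squares Treg_Penk_KO). Grey bands give the range of 10 pan-neuronal genes in both libraries, and genes right of the line at 100% were higher than in neurons, such as Kcna6 in satellite glia-like cells at 311% and 304%.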

How the data were processed

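Fixed cells of cervical dorsal root ganglia were probed with paired oligonucleotides (10x Flex), and the deposited files hold whole UMI counts per gene and barcode, 1 library per group. Per the labels' protocols the counts came from Cell Ranger 7.0, while per the file headers the version was 8.0.1. Build GRCm39 and Seurat are named in the submitters' processing notes, Seurat with no role. The series text speaks of nuclei and the labels of fixed cells.

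A cell needed 500 UMIs and 300 genes (15690 of 15710 control and 12053 of 12067 Treg_Penk_KO barcodes passed). Cells were scaled to 10000 counts, reduced to 40 components of 3000 variable genes without potassium channel genes, and clustered (Leiden, resolution 1) with scanpy 1.11.5, neurons again on their own. Clusters were named from fixed markers, by a scoring rule set after the clusters were seen. Those not passing stayed unnamed. No doublet caller was run. Restricting to droplets of 1 library was tried instead.

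UMIs were summed per library and class, with exact Poisson, Clopper-Pearson and conditional binomial intervals at 95% (scipy 1.17.1). These cover counting error only. No test was possible between 2 single libraries. On simulated counts of 13543 genes in all neurons the intervals held the true ratio for 95.38% of genes. Those counts were drawn as Poisson, which the intervals assume, so this checks the calculation and not the spread between libraries or cells. A gene counted in a comparison had at least 100 UMIs over both libraries. All members are named; of 62 other potassium channel genes, those past the size step and the 5 most concentrated in 1 subtype were to be named, of which 1 is not reported here. Members, markers and lists were chosen with earlier results of these data known. Alternatives were other weights, thinning to 500 UMIs, another scaling, a higher resolution, other cell filters and leaving out clusters.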

Additional observations from a re-analysis of the deposited data

Results flagged for a closer look

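For 2 genes the ratio of Treg_Penk_KO to control lay on opposite sides of 1 in a pair of neuron subtypes, each past the size step and with an interval that left out 1. Kcnc4 was at 1.52 in Sst/Nppb-like neurons, from 50 and 64 UMIs, and at 0.783 in C-LTMR-like neurons, from 463 and 259 UMIs. Kcns1 was at 1.59 in Sst/Nppb-like neurons, from 65 and 87 UMIs, and at 0.497 in Mrgpra3-like neurons, from 75 and 31 UMIs. With 1 library per group the differences were not tested. In droplets of 1 library only, the ratios were 1.12 and 0.803 for Kcnc4 and 1.14 and 0.680 for Kcns1. With each cell weighted equally, those of Kcnc4 were 0.906 and 1.01, so its direction was exchanged, and those of Kcns1 were 1.45 and 0.415.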

How the results depend on the processing

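The counts of 12 A-fibre and 11 C-fibre members stayed within 1.5 times under every alternative run for them. The same 38 highest subtypes were found in each alternative except with cells thinned to 500 UMIs (32) and with cells weighted equally (36). In all neurons the number of members higher by the size step was 3 of 32 when thinned (Kcnc2, Kcnv1 and Kcnn2; 4.36% of all genes), 2 of 38 in droplets of 1 library only (Kcnc2 and Kcnk9; 2.56%), and 1 of 38 without clusters with glial markers (Kcnv1; 2.39%). The number lower was 0 with subtypes weighted equally (4.62% of all genes), 0 with neurons weighted equally (6.54%), 0 when thinned (4.35%), 0 with a step of 1.5 (0.856%) and 0 without the unnamed neurons (3.58%), an alternative added after seeing the data. It was 3 in droplets of 1 library only (Kcnc1, Kcnd2 and Kcnh2), where 4.24% of all genes were. In a member's highest subtype, the number higher was 1 with potassium channel genes kept for clustering, 1 in droplets of 1 library only and 1 without clusters with glial markers. The number lower was 0 with potassium channel genes kept for clustering and 0 at resolution 1.5. It was 3 in droplets of 1 library only (Kcnd2, Kcng4 and Kcnk3). With cells weighted equally it was 4 (Kcnmb4, Kcnn3, Kcnk3 and Kcnk9, the last at 0.747 in Trpm8-like neurons). It was 0 when thinned, among the members with enough UMIs left to count. Thinned ratios not counted passed the step both ways, such as Kcnk3 at 0.713 and Kcnt1 at 1.63. Of 11322 genes in the main run, 3.30% were higher and 4.11% lower in their own highest subtype. The shares under the alternatives are not given here. The cause was not tested, apart from thinning, which leaves fewer UMIs. Neither main call (Kcnd2 in all neurons, Kcnk3 in peptidergic C-like neurons) was counted as higher by the step under any alternative. The flagged subtype ratios did cross 1 in places. When thinned, Kcnc4 in C-LTMR-like neurons was at 1.34, from 7 UMIs in each library. Kcns1 in Mrgpra3-like neurons was then at 2.50, from 1 and 2 UMIs. No paired analysis was possible because each group is 1 library. Depth limited Kcnd2 and Kcnn3 most, and the macrophage-like and mural-like values rest on few UMIs.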

Other observations

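Of the 62 other potassium channel genes of the panel, 43 had at least 100 neuronal UMIs. By the fold of the highest subtype over the median of the others, the most concentrated included Kcnj9 in Trpm8-like neurons (37.7 and 27.0 CPM). Kcna3, Kcnj6 and Kcnq1 in C-LTMR-like neurons were also among them (19.5 and 20.2, 28.0 and 28.7, and 12.1 and 8.38 CPM). The folds of Kcnj9, Kcna3, Kcnj6 and Kcnq1 were 100.5, 93.1, 58.1 and 47.9. In the control library alone they were 190.0, 57.0, 55.3 and 60.8, and Kcnh8 in Trpm8-like neurons stood at 59.9. Kcnj6 and Kcnj9 encode inward rectifiers opened by G proteins.

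Of these 43 genes, 3 were higher by the size step in Treg_Penk_KO over all neurons, where 2.48% of all genes were. Kcng1, a silent subunit, was at 1.58 (1.40 to 1.79, from 519 and 494 UMIs), Kcns2 at 1.30 and Kcnmb2 at 1.27. With subtypes weighted equally they were at 1.35, 1.02 and 1.12. Another 4 were lower, where 4.36% of all genes were. Kcnj14 was at 0.697 (0.616 to 0.787), Kcne4 at 0.754, Kcne1l at 0.782 and Kcnj10 at 0.7995, and with equal weights at 0.859, 1.05, 0.831 and 0.831. Kcnj10 was among the leading genes of a satellite glia-like cluster, and the summed satellite glia markers stood at 265 CPM in control and 236 CPM in Treg_Penk_KO neurons, whose part in its ratio was not tested.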
